A study of Mus musculus with 12 samples.

Results

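The homeostatic astrocyte genes described here are 10 genes that mark the resting, supportive state of astrocytes: Aqp4, Kcnj10, Slc1a2, Slc1a3, Aldh1l1, Sox9, S100b, Aldoc, Glul and Fgfbp3. They were taken by symbol from the 23354 symbols of the deposited cortex table, which lists all 10, each on 1 row. All 10 were also among the 14075 symbols tested, that is, those with a row averaging at least 0.5 FPKM over the libraries (a read level scaled by transcript length and by library size). RNA-seq was run on whole cortices of 12 mice at postnatal day 16, with 3 mice in each of 4 groups. The Dnmt1 CKO mice were Olig1cre/+;Dnmt1flox/flox and their littermate controls Olig1+/+;Dnmt1flox/flox, and the Dnmt3a CKO mice were Olig1cre/+;Dnmt3aflox/flox and their controls Olig1+/+;Dnmt3aflox/flox, all on a C57BL/6 background. Both copies of the methyltransferase gene were thus floxed in knockouts and controls alike, and the groups differed by the cre, which sits in the Olig1 locus and was meant to act in the oligodendrocyte lineage. The mice were made to test whether DNA methylation controls oligodendrocyte differentiation genes of a network disrupted in neurodegenerative disease, for which Dnmt1 but not Dnmt3a had been predicted to be a key regulator. Astrocytes were not the cells that the cre was aimed at, but the values are of whole cortex and do not separate cell types.

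Astrocytes take up the glutamate and the potassium that active neurons release, move water at their endfeet on blood vessels, and turn glutamate into glutamine for return to neurons. The genes for these tasks are on in the resting state, whereas reactive astrocytes raise the intermediate filament gene Gfap. Several of the 10 are not restricted to astrocytes: Kcnj10, Glul and S100b are also known in cells of the oligodendrocyte lineage.

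The deposited sums of FPKM ranged from 342274 to 417856 per library, and steps between low values put the relative depth between 0.856 and 1. The number of reads is unknown, so no counting interval was computed. Neuronal markers were present in every library, for example Slc17a7, the vesicular glutamate transporter of cortical excitatory neurons, at 418 to 489 FPKM. In whole cortex, Dnmt1 stood at 10.2 ± 0.435 FPKM (SD, n = 3) in Dnmt1 controls and 8.49 ± 1.06 in Dnmt1 CKO. Dnmt3a stood at 31.1, 16.9 and 28.7 FPKM in Dnmt3a control 1, 2 and 3 and at 13.6 to 15.4 in Dnmt3a CKO, so that control 2 lay near the knockouts; values of the Dnmt3a line are therefore also given without it. Olig1, whose locus carries the cre, was at 18.4 to 21.9 FPKM in Dnmt1 CKO and 30.6 to 38.8 in Dnmt3a CKO, below all of their controls, which were at 42.0 to 50.9 and 44.1 to 49.8.

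Since DNA methyltransferases act on cytosines followed by guanine (CpG), the CpG content just before the transcription start is shown for the one gene that changed in Dnmt1 CKO, Kcnj10, and for the pair of astrocytic glutamate transporters, Slc1a2 and Slc1a3. The sequences are the 250 bases before the RefSeq start in GRCm38.p6, the assembly that mm10 names, written 5′ to 3′ on the strand of the gene, with each CpG in capitals. Methylation itself is not analysed here. The Kcnj10 window is chr1:172340960-172341209 on the plus strand, the Slc1a2 window chr2:102706188-102706437 on the plus strand and the Slc1a3 window chr15:8710808-8711057 on the minus strand.
Kcnj10: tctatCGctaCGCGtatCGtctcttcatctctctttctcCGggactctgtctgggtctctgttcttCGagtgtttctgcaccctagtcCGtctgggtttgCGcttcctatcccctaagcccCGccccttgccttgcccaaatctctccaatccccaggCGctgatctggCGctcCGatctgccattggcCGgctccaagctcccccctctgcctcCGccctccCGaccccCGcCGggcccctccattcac
Slc1a2: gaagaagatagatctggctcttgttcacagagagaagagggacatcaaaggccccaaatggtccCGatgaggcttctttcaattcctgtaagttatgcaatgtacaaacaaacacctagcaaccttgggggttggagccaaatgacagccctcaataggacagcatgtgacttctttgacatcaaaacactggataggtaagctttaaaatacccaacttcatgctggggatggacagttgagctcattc
Slc1a3: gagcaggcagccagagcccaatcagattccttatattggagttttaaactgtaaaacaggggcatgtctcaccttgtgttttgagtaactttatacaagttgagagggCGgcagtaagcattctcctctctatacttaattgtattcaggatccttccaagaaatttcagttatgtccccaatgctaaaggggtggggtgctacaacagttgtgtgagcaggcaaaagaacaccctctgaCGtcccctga

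The Kcnj10 window held 17 CpG, a count reached by 23.5% of all 32851 windows of this length, whose median was 6 and whose quartiles were 2 and 16. Slc1a3 held 2 CpG, a count reached by 81.2% of windows, and Slc1a2 held 1, a count reached by 92.1%. The Slc1a2 window lies inside the annotated span of the gene (GENCODE M21, chromosome 2, 102658659 to 102790784), because longer transcripts start further upstream. In all, 9 windows of 8 members were available, with counts from 1 to 17. Glul held 15, Fgfbp3 8, Aldh1l1 7, Aldoc 5 and 3 at its alternative starts, and S100b 2. Windows of Aqp4 and Sox9 were not used here. The word ACAAT, the core that SOX proteins such as SOX9 recognise, was searched on both strands: 27.7% of all windows held it, and 2 member windows did, 1 of Slc1a3 and 1 of Aldoc. These counts describe letters only.

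The members spanned a wide range of levels, and their order was much the same in each mouse. Per transcript length, Glul, the glutamine synthetase, and Slc1a2, the main astrocytic glutamate transporter (GLT-1), were the most abundant, with means of 348 and 339 FPKM over the 12 libraries. These 2 levels overlapped, and Glul was the higher in 9 of 12 libraries. Aldoc, the brain form of the glycolytic enzyme aldolase, followed at 251 FPKM, and Slc1a3, the second astrocytic glutamate transporter (GLAST), at 139. S100b, a calcium-binding protein, averaged 35.2 FPKM, Kcnj10, the inward rectifier potassium channel Kir4.1, 24.7, and Aqp4, the water channel of astrocyte endfeet, 21.1. Kcnj10 and Aqp4 overlapped in range. Kcnj10 was the higher in 9 of 12 libraries, and the 3 others were those of the Dnmt1 CKO mice. Aldh1l1, an enzyme of folate metabolism used as a general astrocyte marker, averaged 16.4 FPKM and was below Aqp4 in 12 of 12 libraries although their ranges overlapped. Sox9, a transcription factor of the astrocyte lineage, averaged 5.42 FPKM and Fgfbp3, a secreted protein that binds fibroblast growth factors, 1.93. Over the 12 libraries Slc1a3 varied least, with a coefficient of variation of 3.87%, and Kcnj10 most, with 17.1%.

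**Figure D1:**
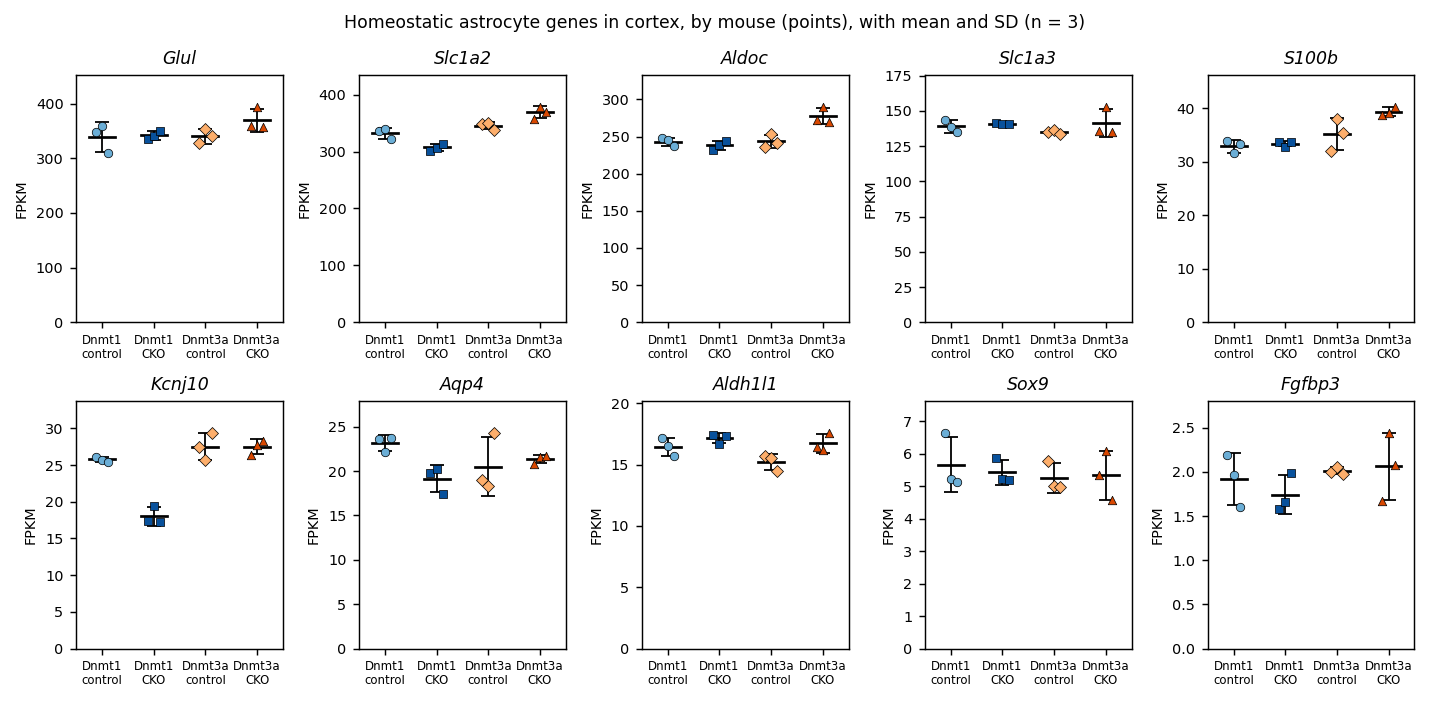
Level of each of the 10 genes in FPKM (vertical axis from 0) in Dnmt1 control, Dnmt1 CKO, Dnmt3a control and Dnmt3a CKO cortex; points are mice, bars the mean and SD of 3 mice. The Kcnj10 panel shows the Dnmt1 CKO mice at 17.2 to 19.5 FPKM, below the 9 other mice at 25.4 to 29.4, whereas Slc1a3 stays at 134 to 153 in all 12.

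Dnmt1 CKO mice, which lose the maintenance methyltransferase, were compared with littermate controls without the cre. Loss of Dnmt1 and the cre in the Olig1 locus cannot be told apart within this line. Kcnj10 fell, and it was the only member past 10% FDR. It was at 26.2, 25.7 and 25.4 FPKM in controls 1, 2 and 3 and at 17.4, 19.5 and 17.2 in CKO 1, 2 and 3. No knockout mouse reached the level of a control mouse. On the log2(FPKM + 0.1) scale Kcnj10 fell by 0.52 (SE 0.052, 95% interval -0.65 to -0.39, adjusted p = 0.0088 over all rows, limma), or fell by 30.1%. The call held under all 20 alternative settings, with adjusted p from 0.00032 to 0.069. Of all 14115 rows tested, 3.15% passed 10% FDR in this line (2.3% lower, 0.85% higher), so 1 of 10 members is a small count to read against that background. In bulk cortex, fewer cells of a type and less RNA per cell cannot be told apart.

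The water channel and the main glutamate transporter were also lower in each Dnmt1 CKO mouse without passing the threshold. Aqp4 was at 23.6, 22.2 and 23.8 FPKM in controls and at 19.8, 20.2 and 17.4 in CKO, 2 groups that do not overlap. Its log2 difference was -0.28 (SE 0.066, interval -0.44 to -0.12, adjusted p = 0.14, limma), and it passed 10% FDR only with the robust setting of eBayes, at an adjusted p of 0.067. Slc1a2 was at 335, 339.9 and 321 FPKM in controls and 302, 307 and 314 in CKO, again with no overlap, and its log2 difference was -0.11 (SE 0.046, interval -0.22 to 0.00047, adjusted p = 0.34). Thus 3 of 10 members, Kcnj10, Aqp4 and Slc1a2, had all knockout values below all control values, against 14.4% of all rows tested. None had them above, against 6.38%. An exact permutation test of 3 against 3 mice cannot give a two-sided p under 0.1, which is the value each of the 3 reached.

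The other 7 members had log2 differences between -0.13 and 0.06, with adjusted p of at least 0.57, and their knockout and control values overlapped. The precision differed between them. For Slc1a3, at 144, 138 and 135 FPKM in controls and 141, 141 and 141 in CKO, the interval of the log2 difference ran from -0.06 to 0.10, and for S100b it ran from -0.06 to 0.10 as well. Aldoc (-0.13 to 0.07) and Aldh1l1 (-0.04 to 0.16) were nearly as narrow. Glul ran from -0.16 to 0.19, Sox9 from -0.33 to 0.23 and Fgfbp3 from -0.48 to 0.22, so that a change as large as that of Aqp4 was not detectable at the spread of Sox9 and Fgfbp3. The median log2 difference of the 10 members was -0.04, beside -0.02 over all rows.

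Ratios of members within single libraries were also compared, since they do not depend on how libraries were scaled. Kcnj10 divided by the geometric mean of the 9 other members was 0.575 to 0.621 in Dnmt1 controls and 0.411 to 0.473 in Dnmt1 CKO, and it was 0.602 to 0.690 and 0.579 to 0.635 in Dnmt3a controls and CKO. Slc1a2 divided by Slc1a3, the ratio of the 2 glutamate transporters, was 2.33 to 2.46 in Dnmt1 controls and 2.14 to 2.23 in CKO, against 2.53 to 2.58 and 2.48 to 2.74 in the Dnmt3a line. Aqp4 divided by the geometric mean of the other members but Kcnj10 was 0.476 to 0.542 in Dnmt1 controls and 0.372 to 0.450 in CKO. In Dnmt3a controls and CKO it was 0.385 to 0.532 and 0.408 to 0.444. Each of these ratios was thus lower in every Dnmt1 CKO library than in any control of that line. A ratio of this kind shows unequal change and does not say which gene moved.

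In the Dnmt3a line no member passed 10% FDR (limma), which 0.0142% of all rows did. At an unadjusted level, 3 of 10 members had p under 0.05, against 7.35% of rows. All 3 were higher in CKO, against 4.89% of rows higher at that level. Aldoc was at 235, 253 and 242 FPKM in controls and 272, 290.0 and 270.2 in Dnmt3a CKO, with no overlap, and its log2 difference was 0.19 (SE 0.048, interval 0.07 to 0.31, adjusted p = 0.66, limma). S100b was at 32.0, 38.0 and 35.4 FPKM in controls and 38.8, 39.1 and 40.3 in CKO (log2 difference 0.17, SE 0.064, adjusted p = 0.66, limma). Aldh1l1 was at 15.7, 15.5 and 14.5 FPKM in controls and 16.5, 16.2 and 17.6 in CKO (0.13, SE 0.049, adjusted p = 0.66, limma). The knockout values lay above those of the controls for each of these, as they did for Slc1a2 (348, 349 and 339 FPKM against 358, 379 and 370.2) and Glul (327, 354 and 340.5 against 359, 394 and 357). That makes 5 of 10 members whose knockout values were all higher, beside 7.33% of all rows, and 0 whose values were all lower, beside 5.43%.

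All 10 log2 differences in the Dnmt3a line were above 0, from 0.00015 for Kcnj10 to 0.19 for Aldoc, where 53% of all rows were above 0. Their median was 0.08, beside 0.01 over all rows. Lists of other cell types shifted too: the median was 0.07 for 15 neuronal genes (12 above 0) and 0.11 for 13 microglial genes (11 above 0). The summed neuronal list was at 3275 to 3365 FPKM in Dnmt3a controls and 3467 to 3533 in CKO. Of the lists used here, only the meningeal one had a median below 0 in this line, at -0.09. The one-sidedness of the members thus was not particular to them, and it depended on scaling and on single mice. With libraries rescaled by median ratio 9 of 10 were above 0, with quantile normalization 8 of 10, and without Dnmt3a control 2, the library with low Dnmt3a, or without CKO 2, 7 of 10. Without control 2 the log2 differences of Aldoc, S100b and Aldh1l1 were 0.22, 0.23 and 0.15, with adjusted p of 0.72 for each. Kcnj10 was at 27.5, 25.7 and 29.4 FPKM in Dnmt3a controls and 26.4, 27.8 and 28.4 in Dnmt3a CKO, with a log2 difference of 0.00015 (interval -0.14 to 0.14). Aqp4 had its highest value of all 12 libraries, 24.3 FPKM, in Dnmt3a control 3, beside 19.0 and 18.3 in controls 1 and 2 and 20.8 to 21.7 in CKO, and its log2 difference was 0.07 (interval -0.19 to 0.34). Slc1a3 and Sox9 overlapped between groups too, at 0.06 (-0.07 to 0.20) and 0.02 (-0.28 to 0.31), and Fgfbp3 at 0.02 (-0.32 to 0.35).

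**Figure D2:**
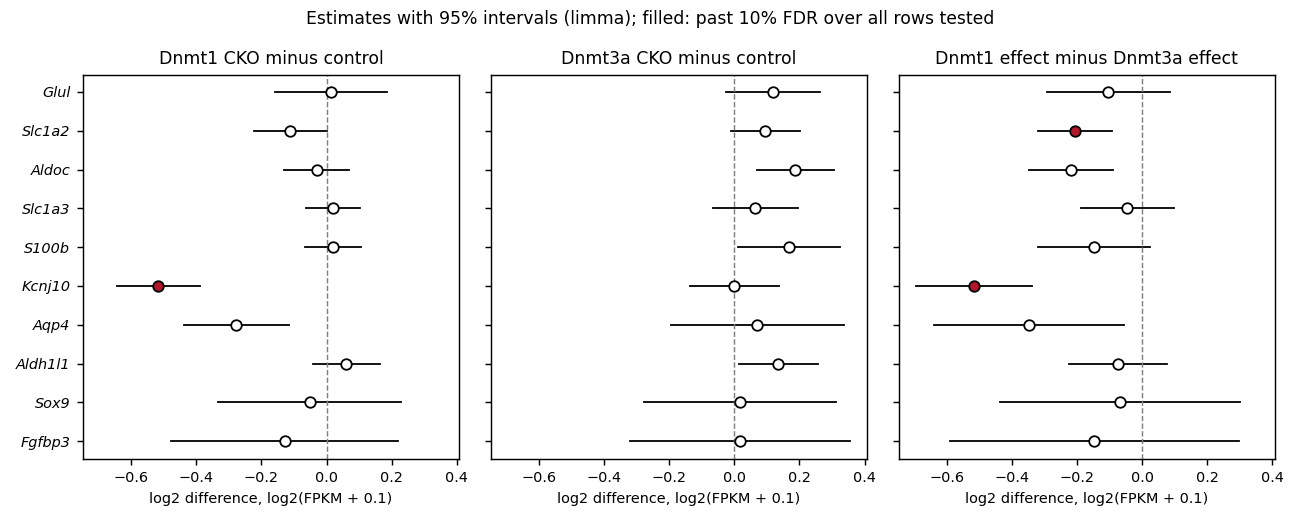
Log2 differences on the log2(FPKM + 0.1) scale with 95% intervals for the 10 genes: Dnmt1 CKO minus control, Dnmt3a CKO minus control, and the first minus the second. Filled points passed 10% FDR over all rows tested: Kcnj10 at -0.52 in the Dnmt1 line, and Kcnj10 and Slc1a2, at -0.52 and -0.21, in the difference between the lines.

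Whether the knockout effect differed between the lines was tested with an interaction term in a model of all 12 libraries. Kcnj10 passed, with a log2 difference of -0.52 between its Dnmt1 and Dnmt3a effects (SE 0.081, interval -0.70 to -0.34, adjusted p = 0.0076, limma), and did so under all 25 alternative settings. Slc1a2 passed narrowly, at -0.21 (SE 0.051, interval -0.32 to -0.09, adjusted p = 0.097). It was lower in each Dnmt1 CKO mouse than in any control of that line, and higher in each Dnmt3a CKO mouse than in any control of that line. The Slc1a2 call held under 5 of 25 alternatives, with adjusted p from 0.056 to 0.27, and without Dnmt3a control 2 the value was -0.21 with an adjusted p of 0.17. Among all rows 2.13% passed (1.83% lower, 0.298% higher). Aldoc had a similar size, -0.22 (SE 0.059, interval -0.35 to -0.09, adjusted p = 0.13). Aqp4 was at -0.35 (SE 0.13, interval -0.64 to -0.06, adjusted p = 0.36, limma). Without Dnmt3a control 3 the value was further from 0, at -0.48 with an adjusted p of 0.031. Over the 25 alternatives it ran from -0.48 to -0.27 and passed under 1. Where 41.2% of all rows had an estimate above 0, all 10 members were below it (9 with quantile normalization, 8 without Dnmt3a CKO 2). Their median was -0.15, beside -0.03 over all rows, and 8 of them did not pass the test.

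Oligodendrocyte genes moved with Kcnj10. In Dnmt1 CKO, all 20 genes of a list of myelinating oligodendrocyte markers were lower and past 10% FDR, beside 2.3% of all rows called lower. Their median log2 difference was -1.67, and their summed level was 627 to 729 FPKM against 2087 to 2420 in controls. In the Dnmt3a line none of the 20 passed (limma; 1 had an unadjusted p under 0.05), at sums of 2643 to 3148 in controls and 2888 to 3290 in CKO. Of 12 oligodendrocyte progenitor markers, 7 fell in Dnmt1 CKO, beside the same 2.3% of all rows. The count was 4 to 6 when any 1 mouse was left out and 4 without control 2, CKO 1 or CKO 3. Olig1, whose locus carries the cre, was among the 7, with a log2 difference of -1.19. In the Dnmt3a line Olig1 was at -0.49 without passing 10% FDR. None of these marker genes was at 0 in all libraries. Because Kcnj10 is also expressed by oligodendrocyte lineage cells, these values stand beside its decrease, and their part in it was not tested. Kcnj10 fell by 0.52 on the log2 scale, less than the smallest decrease on the myelin list, which was -0.72.

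Over the 12 libraries the log2 level of Kcnj10 followed the myelin list closely, with Pearson's r between 0.92 and 0.98 for the 20 genes and a median of 0.97. These 12 points share 2 clusters, the Dnmt1 CKO libraries and the rest, and with the group means removed the median r was -0.00056. By the same measure Slc1a2 had a median r of 0.87 (0.64 with group means removed), Aqp4 0.41 (-0.38), Slc1a3 -0.16 (0.55) and Aldh1l1 -0.49 (0.20). Aldoc was at 0.53 (0.66), Fgfbp3 at 0.53 (0.58), S100b at 0.47 (0.13), Glul at 0.29 (0.56) and Sox9 at -0.05 (0.24). The likeness of Kcnj10 to the myelin genes thus lay between the groups and not among the mice of a group.

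**Figure D3:**
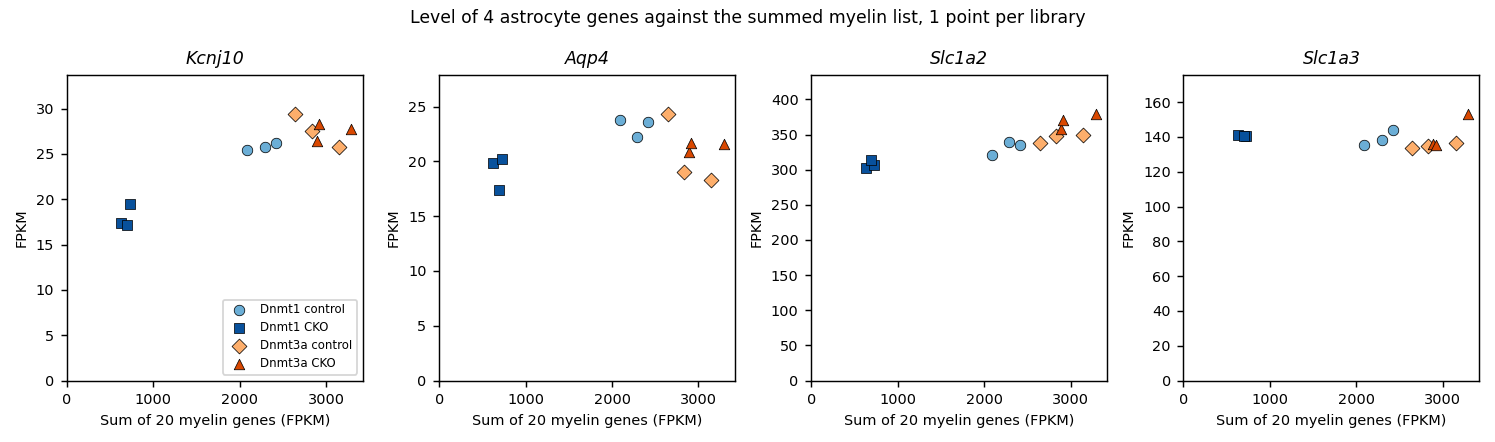
Level of Kcnj10, Aqp4, Slc1a2 and Slc1a3 (FPKM, vertical axis) against the summed level of the 20 myelin genes (FPKM, horizontal axis), with 1 point per library and both axes from 0. The 3 Dnmt1 CKO libraries, at sums of 627 to 729 FPKM, lie apart from the 9 others; they are lowest for Kcnj10 and Slc1a2, and Slc1a3 stays level.

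The genes most like each member were looked up by Pearson's r over the 12 libraries, with no test, since all genes share these libraries. For Kcnj10 they were Inppl1, Gamt and Mcam (r = 0.98 each), which all fell in Dnmt1 CKO, by 0.60, 1.05 and 0.97 on the log2 scale. For Slc1a2 they were Csrp1, Cpm and Phactr4 (0.95 to 0.96), and for Aqp4 Mrps21, Azi2 and Ptges3 (0.91 to 0.93). For Aldoc they were Amd1, whose values were near 0 outside the Dnmt3a CKO libraries, Fgfr3, a growth factor receptor of astrocytes, and Pmp22 (0.90 to 0.93). S100b was most like Npy, Lpcat4 and Fhod1, Glul most like Arhgef37, Lonrf3 and Aldoa, the widespread form of aldolase, Slc1a3 most like Cdk2, Tmsb4x and Kbtbd11, Sox9 most like AI854703, Fancf and Pcdha2, Aldh1l1 most like Srl, Fbxl12 and Apitd1, and Fgfbp3 most like Pum2, Shroom3 and Nkap, with r between 0.82 and 0.95.

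Among themselves the members did not rise and fall as 1 block. Over the 45 pairs Pearson's r had a median of 0.20 (0.11 with group means removed) and ran from -0.54 for Kcnj10 with Aldh1l1 to 0.84 for S100b with Aldoc. Of these pairs, 13 were over 0.5 and 11 were below 0. Aldoc was alike with Glul, Slc1a2 and S100b (r = 0.83, 0.83 and 0.84), and Kcnj10 with Slc1a2 (0.82). Kcnj10 and Aqp4, which act together at astrocyte endfeet, had an r of 0.57, and of 0.75 with group means removed.

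**Figure D4:**
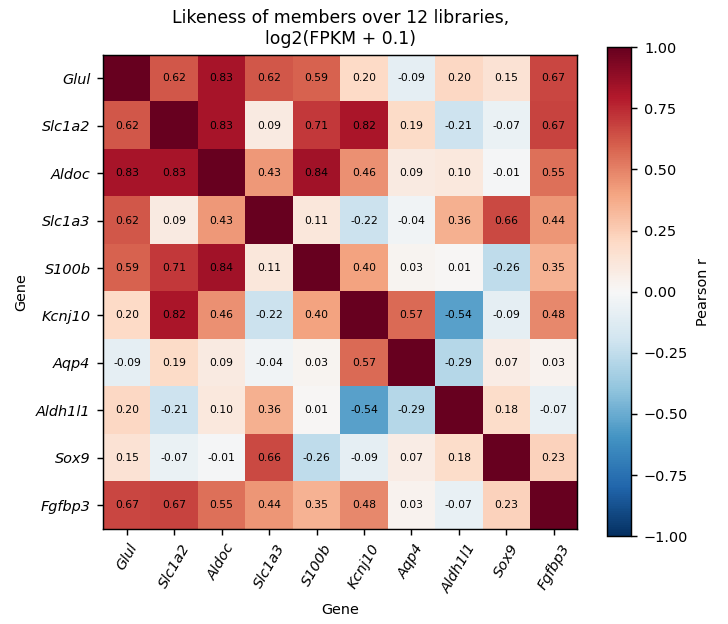
Pearson's r of log2(FPKM + 0.1) between the 10 genes over 12 libraries, colour from -1 to 1, ordered by mean level. Glul, Slc1a2, Aldoc and S100b form a block of higher values, from 0.59 to 0.84, and the Kcnj10 and Aldh1l1 cell is the lowest, at -0.54.

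Other genes of the same tasks were followed on lists by role. Of 21 further genes of glutamate uptake and the glutamine cycle, none passed 10% FDR in either line or in their difference (limma), and 5 had an unadjusted p under 0.05 in the Dnmt1 line, a level that 15% of all rows reached. Over the alternatives 0 to 2 of the 21 passed 10% FDR in that line. The most abundant were Slc17a7 and Got1, an aspartate aminotransferase, with log2 differences of 0.03 and -0.01 in Dnmt1 CKO. The median of the list was -0.03, beside -0.02 over all rows.

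Of 21 genes for potassium and water handling at endfeet, 2 fell in Dnmt1 CKO, beside 2.3% of all rows called lower. Slc12a2, the sodium, potassium and chloride cotransporter NKCC1, was at 13.1, 12.03 and 12.02 FPKM in controls and 8.09, 8.42 and 7.99 in CKO, and fell by 0.60 on the log2 scale (SE 0.049, adjusted p = 0.0048). Kcnj16, the Kir5.1 subunit that assembles with Kir4.1, was at 4.65, 4.28 and 4.17 FPKM in controls and 3.15, 3.35 and 3.30 in CKO, and fell by 0.41 (SE 0.064, adjusted p = 0.042). Neither knockout range overlapped with its controls, as for 14.4% of all rows in the lower direction. Whole cortex does not show in which cells they fell. Slc12a2 kept its call under all 20 alternatives, whereas Kcnj16 lost it under 6 of them. In the difference between the lines 4 of the 21 passed, all lower, beside 1.83% of all rows. Among them were Slc12a2 (-0.61), Kcnj16 (-0.49) and Atp1b2 (-0.25, adjusted p = 0.064, limma), the last of which lost its call under 11 of 25 alternatives. The count ranged from 1 to 4 when any 1 mouse was left out, and was 1 without Dnmt1 CKO 1 or Dnmt3a CKO 2 and 2 without Dnmt1 control 1, Dnmt1 CKO 3 or Dnmt3a control 2.

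Among 21 transcription factors of the astrocyte lineage, Sox6 and Sox8, relatives of Sox9 that also act in oligodendrocyte development, fell by 0.31 and 0.43 in Dnmt1 CKO (adjusted p = 0.053 and 0.085). They lost their calls under 8 and 10 of 20 alternatives, and Sox8 also passed in the difference between the lines (-0.54, adjusted p = 0.021), there under all 25. Sox9 itself was at 6.64, 5.23 and 5.13 FPKM in Dnmt1 controls and 5.87, 5.23 and 5.20 in CKO. Of 22 genes tested for folate, serine and glucose metabolism, Slc2a1, the glucose transporter GLUT1, rose by 0.44 in Dnmt1 CKO (adjusted p = 0.041), and Phgdh, the first enzyme of serine synthesis, passed in the difference between the lines (-0.36, adjusted p = 0.096). Of 13 S100 proteins and fibroblast growth factor genes tested, Fgfr2 fell by 0.39 (adjusted p = 0.06) and passed in the difference at -0.48. Over the alternatives, the calls of Slc2a1 and Fgfr2 in the Dnmt1 line were lost 5 and 9 times of 20, and those of Phgdh and Fgfr2 in the difference 15 and 10 times of 25. Beside these lists, 2.3% of all rows were called lower and 0.85% higher in the Dnmt1 line, and 1.83% lower in the difference. Against these shares, 1 call in a list of 22 or 13 genes is a small count.

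A list of 47 further genes that mark homeostatic astrocytes, some of them shared with the role lists above, had 4 lower and 2 higher calls in the Dnmt1 line. Of all rows, 2.3% were called lower and 0.85% higher there. Bcan, the proteoglycan brevican, fell by 0.30 (adjusted p = 0.026), and Ttpa, Ntsr2 and Acsl6 fell by 0.44, 0.14 and 0.13, while Mertk, a receptor for the uptake of dying cells and synapses, and Cyp4f14 rose by 0.35 and 0.31. The count ranged from 0 to 2 when any 1 mouse was left out and was 0 with the replicate number as a block. In the Dnmt1 line 20 of 47 had an unadjusted p under 0.05 (limma), beside 15% of all rows. There 34 of 47 estimates were below 0, and the median was -0.09, beside -0.02 over all rows. In the Dnmt3a line none passed (limma), and 18 of 47 had an unadjusted p under 0.05, beside 7.35% of all rows. There 37 of 47 estimates were above 0, beside 53% of rows, and the median was 0.13, beside 0.01 over all rows. In the difference between the lines 12 of the 47 passed, all lower, beside 1.83% of all rows called lower. Among them were Bcan (-0.48, adjusted p = 0.0038, limma), Btbd17 (-0.69), Grin2c (-0.50), a glutamate receptor subunit, and Slc39a12 (-0.47), a zinc transporter. These 4 kept their calls under all 25 alternatives, and the count of the list ranged from 4 to 10 when any 1 mouse was left out. Their median was -0.18, close to the -0.15 of the 10 members.

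Genes of the reactive state were compared as the counterpart of the homeostatic ones. Of 34 listed, 25 were tested, and in Dnmt1 CKO 5 rose and 1 fell, beside 0.85% of all rows called higher and 2.3% lower. These 6 calls became 4 without control 1 and 2 or 3 without any other mouse of that line. Gfap was at 48.5, 47.3 and 49.9 FPKM in Dnmt1 controls and 64.6, 70.1 and 64.9 in CKO, and rose by 0.45 (SE 0.042, adjusted p = 0.0065), a call that held under all 20 alternatives. Serpina3n, H2-D1, Fkbp5 and Aspg rose by 0.62, 0.58, 0.69 and 0.45, and Fbln5 fell by 0.50. Of these, Serpina3n, H2-D1 and Fkbp5 lost their calls under 3, 4 and 7 of 20 alternatives. Thus Gfap was higher and Kcnj10 lower in the same 3 libraries. Aqp4 and Slc1a2 were also below every control of that line there, without passing the threshold. Slc1a3, Aldh1l1 and Glul were near their control levels. In the Dnmt3a line no reactive gene passed (limma; 2 had an unadjusted p under 0.05), and Gfap was at 40.2 to 44.4 FPKM in controls and 40.2 to 53.4 in CKO. The difference of the Gfap effect between the lines was 0.32 (adjusted p = 0.34). Lcn2, a secreted protein of reactive astrocytes, was the 1 gene of the list to pass in that difference (1.81, adjusted p = 0.064, limma). Of all rows, 0.298% were called higher there, and the count of the list ranged from 0 to 2 over the alternatives.

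Marker lists of other cell types in the dissected tissue had smaller median log2 differences in Dnmt1 CKO than the oligodendrocyte lists. They ran from -0.16 (endothelial and mural) to 0.10 (microglial), and both of these lists held called genes. In Dnmt1 CKO none of 15 neuronal genes passed (limma; 1 had an unadjusted p under 0.05), at sums of 3330 to 3556 FPKM in controls and 3436 to 3522 in CKO. Of 13 microglial genes 5 rose, beside 0.85% of all rows called higher. The 13 genes summed to 199 to 205 FPKM in controls and 217 to 232 in CKO, without overlap. The 5 calls became 3 without control 2 and 4 without any other mouse of the line. Of 13 endothelial and mural genes, which include the vessel cells that endfeet contact, 2 fell (Rgs5 and Acta2), beside 2.3% of all rows called lower. The 13 genes summed to 148 to 158 FPKM in controls and 133 to 144 in CKO. With any 1 mouse left out the count was 1, or 0 without CKO 1, and Rgs5 and Acta2 lost their calls under 2 and 13 of 20 alternatives. None of 9 choroid plexus and ependymal genes (0 with an unadjusted p under 0.05) and none of 8 meningeal genes (1) passed, but the summed choroid plexus list ran from 8.05 to 428 FPKM over the 12 libraries, overlapping between the groups of each line. No list had a called gene in the Dnmt3a line. The part of these cell types in the values of the members was not tested.

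**Figure D5:**
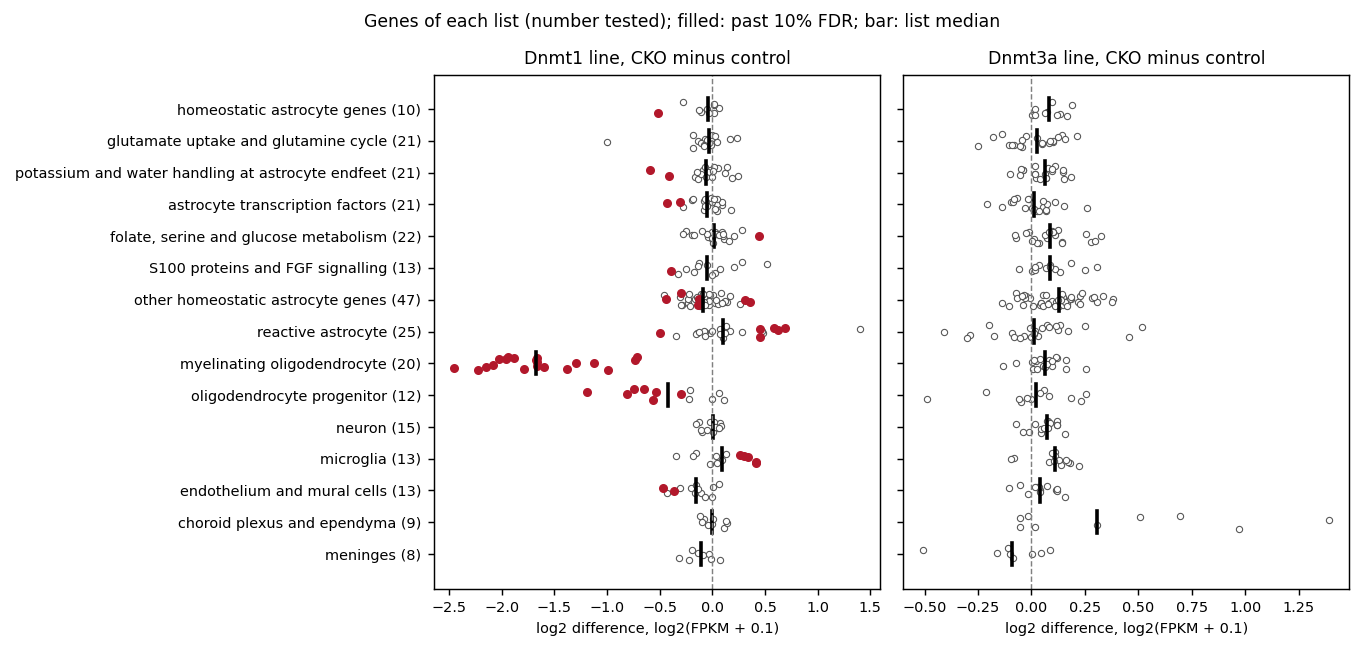
Log2 differences of the genes of each list (number tested in brackets), CKO minus control on the log2(FPKM + 0.1) scale, in the Dnmt1 line (left) and the Dnmt3a line (right, on a narrower axis). Filled points passed 10% FDR and the bar is the list median, which for the 10 homeostatic genes was -0.04 and 0.08 and for the myelin list -1.67 and 0.06.

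Some member values rest on sequence that other genes share. By position in GENCODE M21 (GRCm38), Kcnj10 spans 172341210 to 172374085 of chromosome 1 on the forward strand. No other annotated gene overlaps its exons, and 1.53% of its transcript words of 50 bases occur in other genes. Glul, which spans 153899944 to 153909723 of chromosome 1, shares 11.9% of its words, mostly with the pseudogene Glns-ps1, and overlaps Teddm2 on the other strand, so part of its reads could have been split. Aldh1l1 shares 1.22% with Gm45901, which overlaps it on the same strand, and Slc1a2 overlaps Gm13872 on the other strand. No source used here states that the library kept strand, so reads of antisense partners cannot be told apart. For Aqp4, Sox9, S100b, Aldoc and Fgfbp3 no shared words and no overlapping gene were found.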

How the data were processed

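RNA from cortices of 12 mice was measured by RNA-seq (TruSeq RNA kit). The authors aligned reads to mm10 with TopHat, quantified genes with Cufflinks (versions not given in the sources used here), called changed genes with Cuffdiff, and deposited 1 FPKM value per symbol row and library. Whether the deposited FPKM values were scaled further is not stated. Of 23850 rows, 302 exact duplicates were removed, and 14115 rows that averaged 0.5 FPKM or more were tested; all columns map to a sample by label. Values were transformed to log2(FPKM + 0.1) and compared with limma 3.58.1 in R 4.3.3 (eBayes, trend on). The p-values were adjusted over all rows by Benjamini-Hochberg, with calls at 10% FDR, standing in for Cuffdiff, which needs reads. The difference between the lines was an interaction term over 12 libraries. Fold changes of low genes are understated by the pseudocount. Exact permutation tests are two-sided.

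The members and lists were chosen with earlier results of these data known. Genes are named by rule: the members, the genes of each list past the threshold (at most 4, those with the lowest p, per list; otherwise the 2 most abundant), the 3 genes most like each member, and Dnmt1, Dnmt3a and Olig1. Ttpa, Ntsr2, Acsl6, Mertk, Cyp4f14, Aspg, Fbln5, Lcn2 and Xist were named after their values were seen. 1 gene that the rule names is not reported here. The steps were tested on simulated data. Positions came from GENCODE M21 and promoters from RefSeq, both on GRCm38. Python 3.11.15, numpy 2.4.6, pandas 2.3.3, scipy 1.17.1 and matplotlib 3.10.9 served for tables and plots. Settings varied were the pseudocount (1, 0.01), the filter (0.1 FPKM, 1 FPKM, none), eBayes (no trend, robust), library scaling (median ratio, quantile), summing of rows that share a symbol, a replicate block, Xist as a covariate, 1 model of 12 libraries, 5% FDR, and each library left out.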

Additional observations from a re-analysis of the deposited data

Results flagged for a closer look

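The knockout effect on Kcnj10 differed between the lines, by -0.52 on the log2(FPKM + 0.1) scale (limma interaction, SE 0.081, adjusted p = 0.0076): it was lower in 3 of 3 Dnmt1 CKO mice than in any control of that line, and its values overlapped in the Dnmt3a line. The effect on Slc1a2 differed by -0.21 (SE 0.051, adjusted p = 0.097), lower in 3 of 3 Dnmt1 CKO and higher in 3 of 3 Dnmt3a CKO mice, and lost its call under 20 of 25 alternatives. Groups of 3 mice were not tested for outlying mice.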

How the results depend on the processing

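The decrease of Kcnj10 in Dnmt1 CKO and its difference between the lines kept their direction and their call under every alternative tried (20 and 25). In the Dnmt1 line 1 member passed under every alternative except the robust setting of eBayes, with 2, where Aqp4 joined Kcnj10. In the Dnmt3a line 0 members passed under any. In the difference between the lines the count of members went from 2 to 1, by the loss of Slc1a2, with a pseudocount of 1 or 0.01, a minimum of 0.1 FPKM or no filter, eBayes without trend, median ratio or quantile scaling, the replicate block or 5% FDR. It was 1 to 2 when 1 library was left out. Leaving out any library but Dnmt1 control 3 or Dnmt3a control 3 left 1, and without Dnmt3a control 3 Aqp4 passed in place of Slc1a2. The rows called in the Dnmt1 line went from 444 to 162 with the replicate number as a block and 263 at 5% FDR, and to 199 to 341 with 1 library left out. The labels do not say whether same-numbered mice are paired. Their deviations from the group means correlated at -0.0609, 0.0352 and -0.0251 in the Dnmt1 line and at 0.0182, -0.0792 and -0.00415 in the Dnmt3a line. Such values show no pairing over all rows and do not exclude it. Xist was high in both Dnmt3a control 3 and Dnmt3a CKO 3, at 49.4 and 46.2 FPKM. With the block, 1 row was called in the Dnmt3a line and 300 in the difference, and Kcnj10 kept its call in the Dnmt1 line (adjusted p = 0.069). The rows called in the Dnmt3a line were 2, and 1 with a pseudocount of 1, a minimum of 1 FPKM, the Xist covariate, 1 model of 12 libraries or 5% FDR, 20 with no filter, and 2 to 5 with 1 library left out. Xist was at 1.69 to 1.85 FPKM in Dnmt1 CKO and either under 0.1 or over 46 in the other mice, so as a covariate it also follows the group.

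Estimates near 0 turned their sign. The log2 difference of Kcnj10 in the Dnmt3a line was -0.0099 with median ratio scaling, -0.0092 with quantile scaling and -3.2e-05 with the Xist covariate. With quantile scaling, Slc1a3 was at -0.0085 in the Dnmt3a line and 0.013 in the difference, and Glul at -0.037 in the Dnmt1 line. With 1 library left out, the Dnmt1 line ranges that held both signs were -0.0015 to 0.044 for Slc1a3, -0.12 to 0.065 for Sox9, -0.011 to 0.042 for S100b and -0.051 to 0.058 for Glul. In the Dnmt3a line they were -0.0060 to 0.20 for Aqp4, -0.047 to 0.047 for Kcnj10, -0.082 to 0.12 for Sox9 and -0.11 to 0.15 for Fgfbp3, and in the difference -0.077 to 0.012 for Slc1a3 and -0.17 to 0.049 for Sox9. The causes were not tested. The read depth is unknown, and spread between 3 mice limits the low genes Sox9 and Fgfbp3 most, whose intervals are the widest in the Dnmt1 line.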
